A study of Mus musculus with 3 samples.

Results

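Clec4a4 type 2 dendritic cells were taken here as spleen cells whose RNA held Cst3 together with Clec4a4, Adam23, Ppp1r14a or Ccnd1, and 129 such cells were found among 47453 kept cells in 3 single-cell libraries. A cell was a member if it held at least 1 unique molecular identifier (UMI, the tag of a captured RNA molecule) of Cst3 and at least 3 UMIs summed over the 4 genes. It also had under 2 UMIs of Cd209a and Clec10a together, under 3 of Fscn1, Ccr7 and Cacnb3 together, and 0 of Cd79a, Cd3e, Xcr1, Siglech and Csf3r. Members numbered 38 in the control, 38 in the Ang II and 53 in the B6.SLE123 library, named here by what each held. Since the members were chosen by these measured UMIs, the levels of the rule genes describe how the cells were picked and are not findings.

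Conventional dendritic cells take up antigen and present it to T cells on major histocompatibility complex (MHC) molecules. Type 1 cells excel at presenting antigen from dead cells to CD8 T cells, while type 2 cells mainly present to CD4 T cells. In mouse spleen, type 2 cells include a group that depends on Notch2 signalling, sits near the marginal zone and carries Esam and often Cd4 on its surface, and a second group with monocyte-like genes such as Cd209a, Clec10a and Lyz2. Clec4a4, also known as DCIR2, is an inhibitory C-type lectin receptor of the first group.

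The study asked how isolevuglandins, reactive products of lipid oxidation, take part in immune activation and hypertension in systemic lupus erythematosus. Splenocytes of mice aged 12 to 14 weeks, depleted of T cells with CD3 microbeads, were profiled with the 10x Genomics 5′ assay. Each library pooled 2 conditions of 3 mice each. The C57BL/6 control library held sham-treated male and untreated female C57BL/6 mice. Male C57BL/6 mice infused with angiotensin II (Ang II) by pump for 2 weeks at 490 ug/kg/min, as the label writes the dose, without or with 2-hydroxybenzylamine (2-HOBA), a scavenger of isolevuglandins, made up the Ang II library. The B6.SLE123 library held female B6.SLE123 mice, a congenic lupus-prone strain with the Sle1, Sle2 and Sle3 intervals on a C57BL/6 background, untreated or given 2-HOBA for 6 weeks from the age of 7 weeks. Each library carried 6 hashtags, antibody tags that mark the cells of a sub-sample, but the labels tie no hashtag to a condition, so the effect of 2-HOBA was not analysed here. With 1 library a group there was no test between libraries. Differences are given as log2 ratios with exact 95% intervals, which cover counting error only, and sex, strain, treatment and library cannot be told apart where they coincide. Xist, which is transcribed from the inactive X chromosome, had 54 UMIs in 17 control members, 0 in the Ang II members and 122 in 42 B6.SLE123 members. By control hashtag it had 0 UMIs in C0301, C0302 and C0303 (9, 4 and 1 members). C0304, C0305 and C0306 (3, 12 and 9 members) had 2, 22 and 30. The male and female conditions of this library thus seem to lie in these 2 sets, which the labels do not state. The main comparisons between libraries used all 6 control hashtags together.

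The members were deeply sampled for this assay. Their median was 3965 UMIs per cell in control, 5798.5 in Ang II and 4436 in B6.SLE123, against 1792, 2771 and 1956 over all kept cells, and the members of a library together held 174433, 227388 and 249138 UMIs. Levels are given as CPM, the UMIs of a gene scaled to a common total over the members of a library. The files shared 415 to 496 barcodes between any 2 libraries. Of these, 2 Ang II and 3 B6.SLE123 barcodes of members also occurred in the control file, none as a member there.

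The rule genes were found at modest levels per cell. The median 4-gene sum was 8 UMIs in control, 7 in Ang II and 8 in B6.SLE123, and the highest sums were 21, 27 and 24. Ccnd1, which encodes the cell cycle regulator cyclin D1, gave most of the sum with 191, 206 and 260 UMIs. Of the members, 4, 4 and 1 held no UMI of the other 3 genes. Without Ccnd1, 29 of 38, 24 of 38 and 38 of 53 members still reached a sum of 3, so the rest were members only with their Ccnd1 UMIs. Clec4a4 itself had 35, 39 and 36 UMIs and was seen in 24, 18 and 27 members. Just inside the limit lay 23 cells with a sum of 3, and 45 cells with a sum of 2 lay just outside. The B6.SLE123 library held 31 of the 45 cells just outside and 7 of the 23 just inside, so values are given by library. MHC class II gene H2-Aa stood at 10190, 13797 and 9956 CPM just inside the limit in control, Ang II and B6.SLE123 and at 9109, 11736 and 6140 CPM just outside. Flt3 was at 313, 147 and 274 CPM inside and 355, 373 and 125 CPM outside, and the type 1 marker Clec9a at 0, 171 and 520 CPM inside and 177, 124 and 62.4 CPM outside. For these last 2 genes the direction differed between libraries.

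Dendritic cell genes that the rule did not use were present in the members of every library. Itgax, which encodes CD11c, was at 407 CPM in control, 246 in Ang II and 265 in B6.SLE123 members. Flt3, the receptor for the growth factor of dendritic cells, was at 235, 180 and 209 CPM, and the conventional dendritic cell factor Zbtb46 at 132, 198 and 92.3 CPM. Markers of other cells were partly set by the rule, which asks for 0 UMIs of Cd79a, Cd3e and Csf3r. T cell markers summed to 0, 4.40 and 0 CPM, and basophil and erythroid markers were at 0 in all 3 libraries. The 7 B cell markers summed to 235, 180 and 181 CPM and were seen in 20 of 38, 23 of 38 and 24 of 53 members. In B cells of the same libraries they summed to 11577, 10228 and 9849 CPM. Among them Cd79b was at 80.3, 26.4 and 28.1 CPM in members against 1986, 1833 and 1898 CPM in B cells. Markers of red pulp macrophages summed to 5.73, 106 and 570 CPM. The C1q genes behind them were seen in 0, 3 and 3 members, and 96 of the 139 C1q UMIs in B6.SLE123 came from a lone cell. Neutrophil markers summed to 11.5, 106 and 116 CPM. Of the members, 0, 3 and 3 also met the rule for type 1 dendritic cells, which asks for 3 UMIs of Xcr1 and Clec9a. Doublets within a hashtag were not called, and their part in these values was not tested.

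Clec4a4 type 2 dendritic cells made up 0.238% of kept control cells (95% interval 0.169 to 0.327). Their share was 0.272% (0.192 to 0.373) in Ang II and 0.303% (0.227 to 0.396) in B6.SLE123. Against control, the log2 ratio of the share was 0.35 (-0.28 to 0.99) in B6.SLE123 and 0.19 (-0.50 to 0.88) in Ang II. With the full counts both intervals held 0. The rule counts UMIs, and kept Ang II cells were the deepest, with a median of 2771 UMIs against 1792 in control. After each cell was thinned to 1000 UMIs, with shallower cells left out, the shares were 0.103%, 0.0306% and 0.104% (15, 4 and 16 members). Ang II then lay below control, with no interval given for that ratio. Hashtag shares ranged more widely than library shares, but each rested on only 0 to 17 members and has a wide counting interval. In control the lowest, C0303, had an interval of 0.00133% to 0.293% and the highest, C0305, of 0.208% to 0.702%. Whether hashtags differed beyond counting error was not tested. Hashtag shares ran from 0.0526% to 0.402% in control, from 0% to 0.549% in Ang II and from 0.121% to 0.514% in B6.SLE123. The Ang II hashtag without a member had 1875 kept cells, which allows a share of up to 0.16%. Among dendritic cells of 4 kinds (Clec4a4 type 2, Cd209a Clec10a type 2, type 1 and migratory), the members were 38 of 106 in control, 38 of 100 in Ang II and 53 of 184 in B6.SLE123, or 35.8%, 38.0% and 28.8%. In that denominator the B6.SLE123 ratio was -0.32 (-0.94 to 0.33), with the sign turned and 0 still inside the interval.

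**Figure D1:**
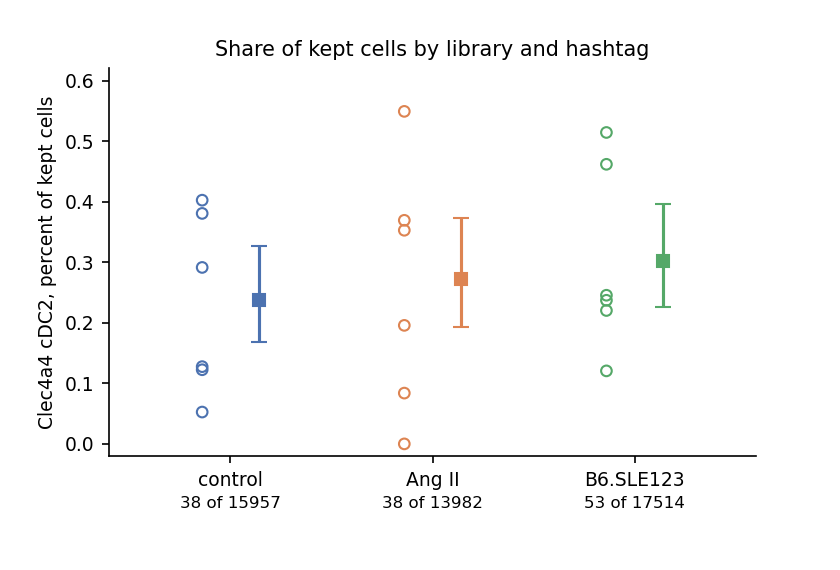
Share of kept cells (percent) that were Clec4a4 type 2 dendritic cells in each library, with exact 95% intervals, and in each hashtag of a library as points. The library shares of 0.238%, 0.272% and 0.303% have overlapping intervals. The hashtag points spread more widely, but each rests on few members and is drawn without its interval.

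Compared with Cd209a Clec10a and type 1 cells of the same libraries, the members held Dtx1, a Notch target, and more of the antigen loading gene H2-DMb2 and the NF-kB subunit Relb, and shared the inhibitory receptor Sirpa with Cd209a Clec10a cells. These comparisons describe cells that the rule itself separated and carry no test. Dtx1, a ubiquitin ligase gene that Notch induces, had 29 UMIs in 18 of 38 control members, 46 in 15 of 38 Ang II members and 24 in 12 of 53 B6.SLE123 members, or 166, 202 and 96.3 CPM. No Dtx1 UMI was found in Cd209a Clec10a cells, and in type 1 cells the levels were 0, 0 and 4.65 CPM. B cells also carried Dtx1, at 117, 131 and 129 CPM. In migratory cells it was at 229, 22.8 and 64.8 CPM. The 12 genes of the Notch pathway list, Dtx1 included, did not set the members apart, with 470, 523 and 313 CPM in members and 451, 506 and 405 CPM in Cd209a Clec10a cells.

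Sirpa marks type 2 cells and stood at 247, 237 and 217 CPM in members against 0, 7.83 and 18.6 CPM in type 1 cells, with 223, 267 and 191 CPM in Cd209a Clec10a cells. Relb, which type 2 cells of the spleen need, was at 269, 273 and 341 CPM in members, 44.5, 57.2 and 107 CPM in Cd209a Clec10a cells and 38.0, 39.2 and 23.3 CPM in type 1 cells. H2-DMb2, a subunit of the peptide loader of MHC class II, was at 562, 602 and 526 CPM in members and at most 134 CPM in Cd209a Clec10a or type 1 cells. In every library Relb and H2-DMb2 were thus higher in members than in Cd209a Clec10a and type 1 cells, while Sirpa set both type 2 kinds apart from type 1 cells. Migratory cells held more Relb than the members, at 1147, 660 and 814 CPM, and 373, 364 and 278 CPM of H2-DMb2. B cells carried H2-DMb2 too, at 602, 675 and 630 CPM.

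Ranked by the smallest ratio over the 3 libraries, Asb2, a ubiquitin ligase subunit, came first among genes higher in members than in Cd209a Clec10a cells, with 390, 383 and 273 CPM against 0, 9.54 and 0. Lyz2, the lysozyme of macrophages and monocytes, was far lower in members, with 22.9, 158 and 12.0 CPM against 11904, 7833 and 5439. The Ang II value of Lyz2 in members leaned on a cell with 21 Lyz2 UMIs. The 7 monocyte markers summed to 3796, 2242 and 2547 CPM in Cd209a Clec10a cells against 109, 185 and 104 CPM in members. Among them Ly6c2 had 240, 43 and 171 UMIs against 0, 3 and 1. Whether that group held monocytes was not tested, so contrasts with it need not be between 2 kinds of dendritic cell. Against type 1 cells the members carried more of the lymphotoxin gene Ltb (843, 800 and 634 CPM against 22.8, 15.7 and 4.65), S100a4 (1336, 1139 and 1128 CPM against 0, 62.7 and 4.65) and Ffar2, a receptor for short-chain fatty acids. Ltb was at 1068, 939 and 807 CPM in B cells. Irf8, the factor that type 1 cells require, was at 86.0, 145 and 124 CPM in members and 1088, 987 and 1125 CPM in type 1 cells. It was seen in 1, 8 and 7 members, so all 15 control UMIs came from a lone cell. Cd8a was at 0, 30.8 and 52.2 CPM against 441, 689 and 414. Of 3098 genes compared with Cd209a Clec10a cells, 141 were at least 2-fold higher and 122 at least 2-fold lower in members in all 3 libraries. Against type 1 cells the counts were 266 and 73 of 3070.

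**Figure D2:**
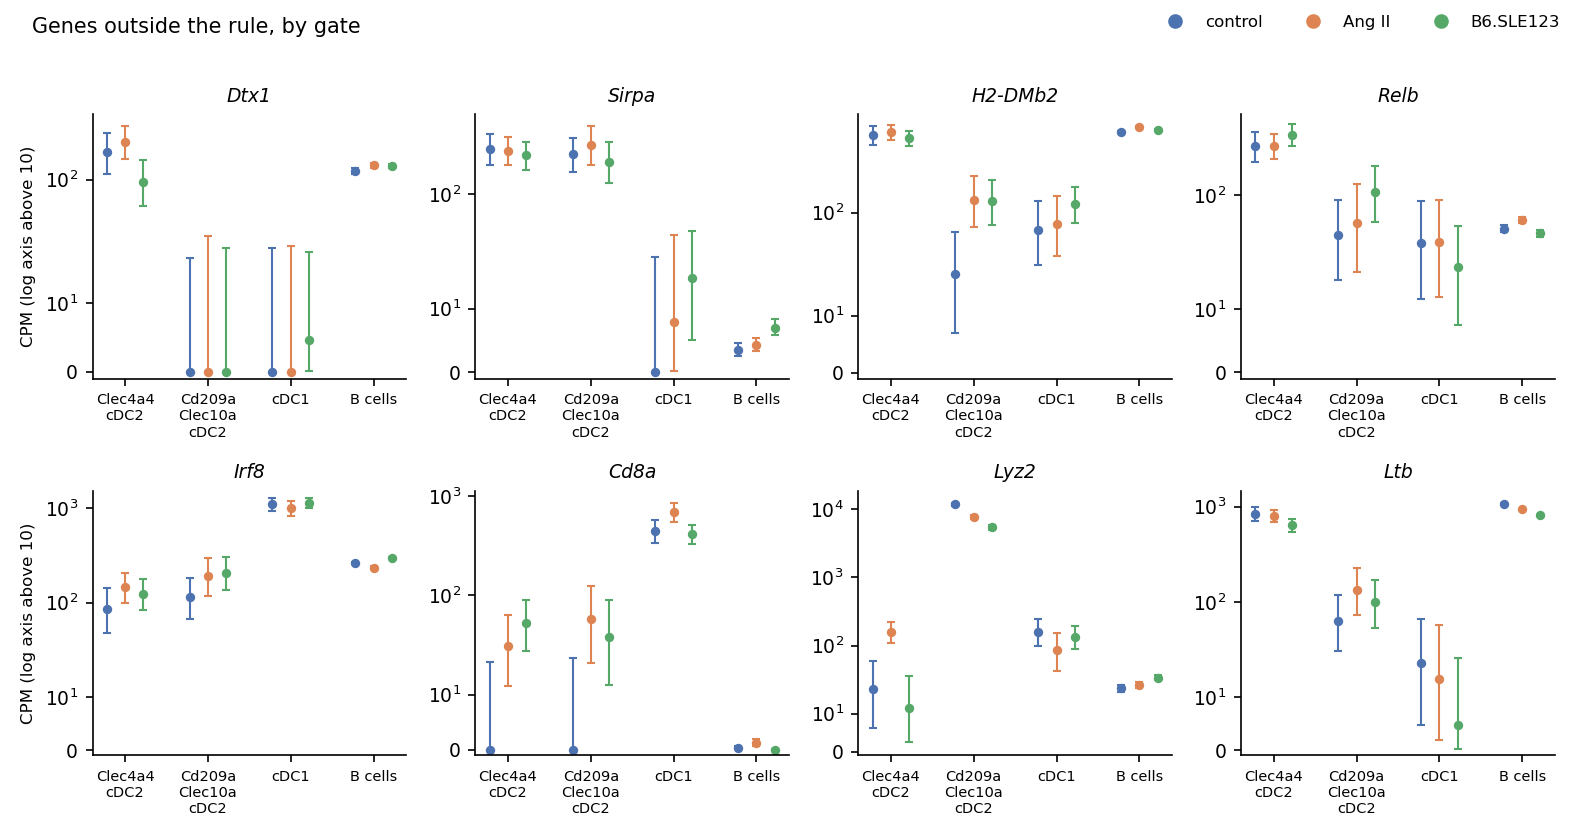
Level (CPM, axis linear up to 10 and logarithmic above) of 8 genes outside the rule in Clec4a4 type 2 cells (Clec4a4 cDC2), Cd209a Clec10a type 2 cells, type 1 cells (cDC1) and B cells, with a point per library and exact 95% counting intervals. Dtx1 stands at 96.3 to 202 CPM in the members and at or near 0 in the other dendritic cells plotted, Lyz2 is highest in Cd209a Clec10a cells, and Irf8 and Cd8a are highest in type 1 cells.

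Several genes linked to splenic type 2 cells were sparse. Esam, an adhesion molecule, had 7, 6 and 4 UMIs and the T-bet gene Tbx21 had 5, 7 and 10. Cd4 had 20, 11 and 13 UMIs, or 115, 48.4 and 52.2 CPM, and Irf4, a factor of type 2 cells, had 6, 2 and 9 UMIs. Mgl2 was at 0 in members of all 3 libraries. So was Clec10a, a rule gene that selection held under 2 UMIs together with Cd209a. Most members therefore cannot be placed by Esam or Cd4 at this depth.

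The members were also set out by Clec4a4, a rule gene, as 69 with a UMI and 60 without, the latter admitted by the other 3 genes, so these values are a description. Dtx1 was at 204 CPM (162 to 255) in the former and 75.7 CPM (46.2 to 117) in the latter, over all libraries, and was higher in the former in each library. Clec9a had 0 UMIs in members with Clec4a4 and 32 in members without it. Cd4 was at 129, 46.4 and 85.3 CPM in members with Clec4a4 and 86.5, 51.0 and 9.22 CPM in those without, in control, Ang II and B6.SLE123, so Ang II did not share the direction. Flt3 (217 and 189 CPM), Itgax (292 and 303) and H2-Aa (9923 and 10194) were close in both.

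Proliferation genes were seen in a part of the members of every library. Of control members, 13 of 38 (34.2%, 19.6 to 51.4) held a UMI of Mki67, Top2a, Birc5, Cdk1 or Ccnb2, called mitotic genes below, against 1 of 31 Cd209a Clec10a cells and 2 of 20 type 1 cells. In B6.SLE123 the counts were 22 of 53 members (41.5%, 28.1 to 55.9), 3 of 36 and 5 of 46. In Ang II they were 5 of 38 (13.2%, 4.41 to 28.1), 1 of 13 and 3 of 23. After each cell was thinned to 2000 UMIs, with 2, 4 and 4 shallower members left out, the shares in members were 36.1% in control, 11.8% in Ang II and 30.6% in B6.SLE123. Ccnd1, a rule gene, is itself a cell cycle gene, and its part in these shares was not tested. Cd209a Clec10a cells had to have a 4-gene sum under 3, so cells rich in Ccnd1 were kept out of that group by its definition. The contrast with them is therefore not independent of the rule.

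In B6.SLE123 members the interferon-induced transmembrane genes Ifitm2 and Ifitm1 were higher than in control. The chemokine gene Ccl5 and the lysosomal protease gene Napsa were lower, and the MHC genes of the fixed lists below stayed within 2-fold. Ifitm2 was 9.82-fold higher, Ifitm1 3.14-fold higher, Ccl5 6.62-fold lower and Napsa 3.92-fold lower. Among 1253 genes with at least 50 UMIs in both libraries together, 36 were at least 2-fold higher (2.87% of genes compared) and 12 at least 2-fold lower (0.958%). The median log2 ratio of all of them was 0.03.

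Ifitm proteins sit in membranes and block the entry of viruses. Ifitm2 (ENSMUSG00000060591, chr7:140954837-140955987, minus strand, GRCm38) had 52 UMIs in 23 of 38 control members, 93 in 22 of 38 Ang II members and 729 in 51 of 53 B6.SLE123 members, or 298, 409 and 2926 CPM. The log2 ratio to control was 3.30 (2.89 to 3.73) in B6.SLE123 and 0.46 (-0.05 to 0.97) in Ang II. Over hashtags with at least 3 members, Ifitm2 ran from 170 to 573 CPM in control, from 234 to 803 in Ang II and from 1523 to 3825 in B6.SLE123, so that every B6.SLE123 hashtag lay above every other hashtag. The difference was also present in other cells of that library. Type 1 cells held 114 CPM in control and 2646 in B6.SLE123, Cd209a Clec10a cells 1666 and 3626 CPM, and B cells 5.40 and 3725 CPM, so Ifitm2 was not particular to the members. The 7 B cell markers summed to 181 CPM in B6.SLE123 members and 9849 CPM in B cells of that library. The part of B cell RNA in the Ifitm2 level was not tested.

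Ifitm1 had 64, 70 and 287 UMIs in 13, 12 and 31 members, or 367, 308 and 1152 CPM, with a B6.SLE123 log2 ratio of 1.65 (1.26 to 2.06). Its hashtags overlapped, from 96.4 to 1074 CPM in control and from 136 to 2493 in B6.SLE123, and the ratio fell to 0.48 when B6.SLE123 hashtag C0303 was left out. In the control library Ifitm1 was at 6.36 CPM in Cd209a Clec10a cells and 7.61 in type 1 cells, each a lone UMI. Ifitm3 was at 1118, 1152 and 1979 CPM, a B6.SLE123 ratio of 0.82 (0.58 to 1.07), and Ifitm6 had a ratio of -0.26 (-0.85 to 0.33). Neighbouring Ifitm genes thus moved by different amounts.

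The bases before Ifitm2 and Ifitm3 are shown because these genes lie close together on chromosome 7 and differed in size of change. Each run is the 250 bases before the RefSeq start on the gene's strand (RefSeq, GRCm38.p6), chr7:140955962-140956211 for Ifitm2 and chr7:141010745-141010994 for Ifitm3, both minus. Capitals mark the core of an interferon response element, GAAANNGAA, searched on both strands.
Ifitm2: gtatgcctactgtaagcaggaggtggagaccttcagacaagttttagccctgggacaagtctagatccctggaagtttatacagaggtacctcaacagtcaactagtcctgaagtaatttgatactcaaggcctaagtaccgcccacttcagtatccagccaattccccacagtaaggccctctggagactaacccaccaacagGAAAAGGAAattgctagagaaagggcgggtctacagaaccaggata
Ifitm3: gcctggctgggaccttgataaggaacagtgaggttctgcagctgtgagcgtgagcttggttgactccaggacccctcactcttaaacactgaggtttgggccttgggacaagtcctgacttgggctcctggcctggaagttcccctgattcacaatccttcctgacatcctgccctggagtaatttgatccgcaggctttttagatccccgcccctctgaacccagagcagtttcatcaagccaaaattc
Ifitm2 held 1 match, 46 bases before the start, and Ifitm3 held none in this window. Of 32851 promoters of the same length, 7.13% held a match. These are matches of letters and say nothing of whether a factor binds there.

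Few other interferon-stimulated genes had enough UMIs in the members to compare. Of the 19 genes of the interferon response list, 5 could be compared in B6.SLE123, 0 of these were at least 2-fold higher or lower and the median log2 ratio was 0.16, beside 0.03 over all genes. Isg15, a ubiquitin-like modifier, was at 155 CPM in control, 268 in Ang II and 173 in B6.SLE123. Of the 6 Ifi200 and Ifitm genes compared, only Ifitm2 and Ifitm1 passed 2-fold, and the list median was 0.77. Ifi205, too sparse to be compared, had 5 UMIs in control and 28 in B6.SLE123.

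Ccl5, which encodes a chemokine that attracts T cells, had 88 UMIs in 26 of 38 control members, 52 in 18 of 38 Ang II members and 19 in 9 of 53 B6.SLE123 members, or 504, 229 and 76.3 CPM. The log2 ratio to control was -2.73 (-3.52 to -1.998) in B6.SLE123 and -1.14 (-1.66 to -0.63) in Ang II. Hashtags with at least 3 members ran from 93.2 to 1575 CPM in control, from 106 to 353 in Ang II and from 0 to 162 in B6.SLE123. Those of control and B6.SLE123 thus overlapped at the low end of control. In control hashtags without a Xist UMI (C0301, C0302 and C0303, the last with 1 member) Ccl5 was at 617, 1575 and 1623 CPM. In those with Xist (C0304, C0305 and C0306) it was at 386, 496 and 93.2 CPM. Both ratios above use all control hashtags, and the part of sex in them was not tested. Migratory dendritic cells, which the rule removed, held far more Ccl5, at 10240 CPM in control and 6949 in B6.SLE123.

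Napsa encodes an aspartic protease of the lysosome. It had 173 UMIs in 37 of 38 control members, 245 in 34 of 38 Ang II members and 63 in 37 of 53 B6.SLE123 members, or 992, 1077 and 253 CPM. The log2 ratio was -1.97 (-2.41 to -1.55) in B6.SLE123 and 0.12 (-0.17 to 0.41) in Ang II. Hashtags ran from 645 to 1350 CPM in control, from 970 to 1702 in Ang II and from 190 to 343 in B6.SLE123, without overlap between B6.SLE123 and the others. In type 1 cells Napsa also stood lower in B6.SLE123 than in control (69.8 against 380 CPM), and the B6.SLE123 log2 ratio was -0.61 in Cd209a Clec10a cells. In B cells it went the other way, from 532 to 616 CPM.

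Several large ratios rested on gene copies or on few cells. Ftl1-ps1, listed as a separate gene, had 6 UMIs in control and 194 in B6.SLE123, while Ftl1, which encodes the ferritin light chain, went from 314 to 209. These copies are near identical and can share reads. Summed, they were at 1835 CPM in control and 1618 in B6.SLE123, a log2 ratio of -0.18 (-0.40 to 0.03). C1qb, a complement gene of macrophages, went from 0 UMIs to 68, or 15.9-fold higher with the 0 set to a floor of 3 UMIs, a log2 ratio of 3.99. The exact interval of the log2 ratio starts lower, at 3.65. All 68 UMIs lay in 2 of 53 cells and 45 in a lone cell. Fabp5, a fatty acid binding protein gene, had a ratio of 2.21, with 50% of its B6.SLE123 UMIs in 3 cells. Ppt1, which encodes a lysosomal thioesterase and is high in type 1 cells, had a ratio of 1.47, and -0.025 without the members that met the type 1 rule. Gm42031 and Gm4316, predicted genes, had ratios of 4.06 and 2.43.

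Hspa8, a chaperone gene, was at 1278, 2375 and 2802 CPM, with ratios of 1.13 (0.91 to 1.36) in B6.SLE123 and 0.89 (0.67 to 1.13) in Ang II. Both comparisons use the same control cells, and Hspa8 was also higher than control in B cells, at 1763 CPM in Ang II and 1969 in B6.SLE123 against 1099. Etfb, a mitochondrial electron carrier gene, had a B6.SLE123 ratio of 1.91 and Pglyrp1, a peptidoglycan recognition gene, 1.15. Lower in B6.SLE123 were 4 histone genes, members of families whose copies can share reads, with ratios from -1.92 (Hist1h4d) to -1.30 (Hist1h2ap), and 4 ribosomal protein genes, from -0.84 (Rps21) to -0.77 (Rps27). Slamf7, a costimulatory receptor of the SLAM family, went from 60 to 36 UMIs, or 344 to 144 CPM, a ratio of -1.25 (-1.89 to -0.63).

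**Figure D3:**
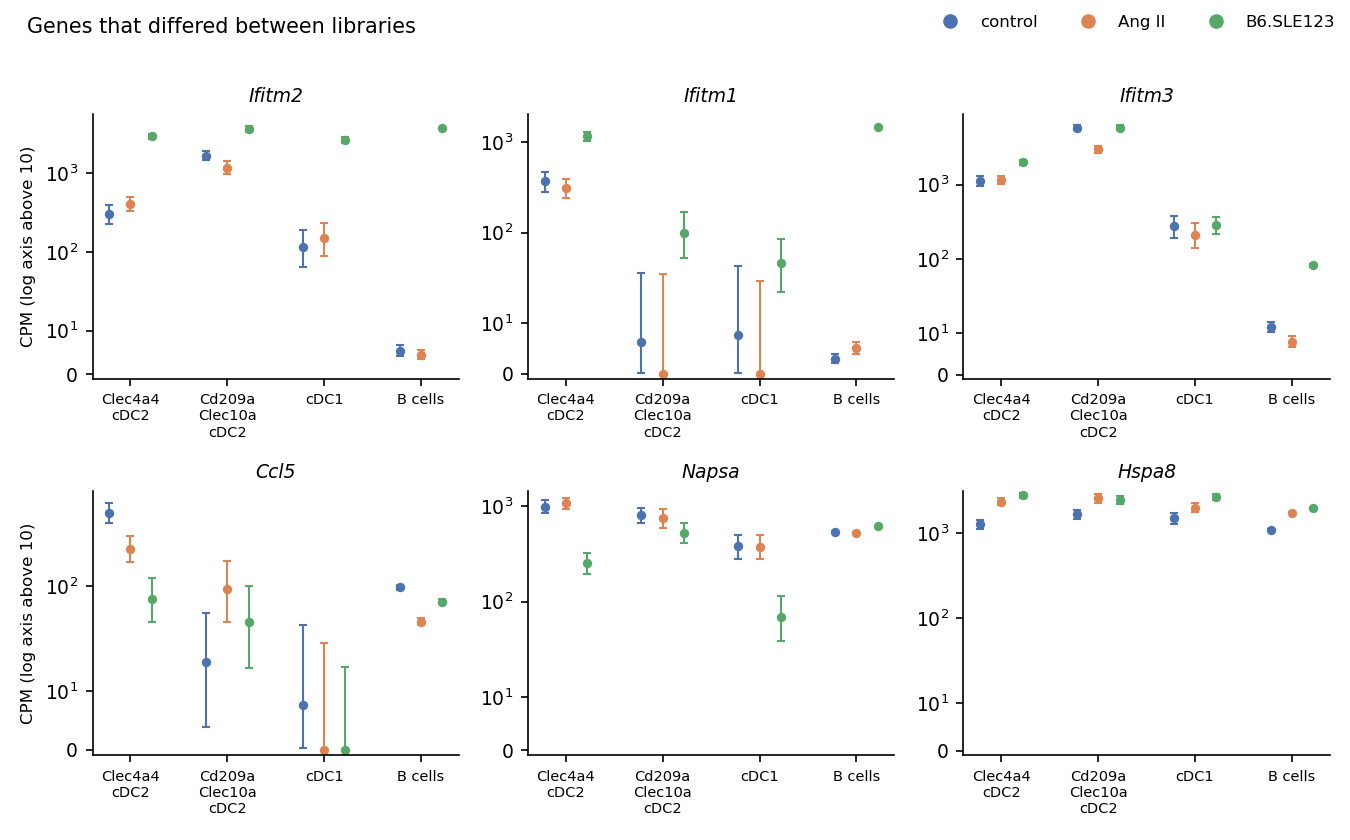
Level (CPM, axis linear up to 10 and logarithmic above) of 6 genes in Clec4a4 type 2 cells (Clec4a4 cDC2), Cd209a Clec10a type 2 cells, type 1 cells (cDC1) and B cells, with a point per library and exact 95% counting intervals. In the members Ifitm2 stands at 298, 409 and 2926 CPM, Napsa at 992, 1077 and 253 and Ccl5 at 504, 229 and 76.3 in control, Ang II and B6.SLE123, and Ifitm2 is higher in B6.SLE123 than in control in every kind of cell plotted.

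Antigen presentation genes of the fixed lists stayed within 2-fold. The 13 MHC class II genes compared in B6.SLE123 had a median log2 ratio of -0.14, and the 13 compared in Ang II a median of -0.07. Over all genes compared, 2.87% were at least 2-fold higher and 0.958% lower in B6.SLE123, and 1.49% and 2.89% in Ang II. At these shares, lists of this size would hold few such genes. Outside the lists, MHC gene H2-Eb2 had a B6.SLE123 ratio of -1.28 (-2.15 to -0.44). H2-Q6 and H2-Q7 had Ang II ratios of -1.06 and -1.69. H2-Aa was at 10566 CPM in control, 10093 in Ang II and 9605 in B6.SLE123, and its hashtags overlapped. The 11 MHC class I genes were also within 2-fold, with medians of 0.24 in B6.SLE123 and -0.14 in Ang II. Within costimulation and checkpoint genes, Slamf7 alone of 4 passed 2-fold in B6.SLE123, and 0 of 5 in Ang II. Oxidative stress genes had medians of 0.15 and -0.01 over 9 genes each, with only Ncf4, a subunit of the NADPH oxidase, past 2-fold in B6.SLE123 (91.7 CPM in control, 163 in Ang II and 221 in B6.SLE123). Lysosome genes had medians of 0.45 in B6.SLE123 and 0.50 in Ang II over 9 genes, with Psap and Grn past 2-fold in B6.SLE123. Psap, the precursor of the saposins, had 50% of its B6.SLE123 UMIs in 3 cells, and its ratio fell from 1.05 to 0.18 without members that met the type 1 rule.

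In Ang II members, the clearest difference from control with the limit of under 3500 detected genes was a lower level of proliferation genes, and that difference shrank when the limit was lifted. Of 1142 genes compared, 17 were at least 2-fold higher (1.49%) and 33 at least 2-fold lower (2.89%), with a median log2 ratio of -0.02. The 12 named lower genes were all proliferation or histone genes except H2-Q7, a class Ib MHC gene, with 42 and 17 UMIs. Pclaf, a partner of the replication clamp, had 62 UMIs in control, 6 in Ang II and 76 in B6.SLE123, or 355, 26.4 and 305 CPM, an Ang II ratio of -3.75 (-5.25 to -2.55). Hmgb2, a chromatin protein gene of dividing cells, was at 1611, 523 and 1401 CPM, a ratio of -1.62 (-1.94 to -1.31). Top2a, the topoisomerase of mitosis, was at 396, 136 and 313 CPM (-1.54, -2.20 to -0.91) and Ube2c, a ubiquitin conjugating enzyme of mitotic exit, at 625, 229 and 458 CPM (-1.45, -1.96 to -0.96). These genes rested on few cells and hashtags. Without control hashtag C0301 the ratios of Hmgb2, Top2a and Ube2c were -1.03, -0.69 and -0.04, and without Ang II hashtag C0305 they were -3.14, -4.17 and -6.42. Of the 52 Ang II UMIs of Ube2c, 35 lay in a lone cell.

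The bases before Top2a and Ube2c are shown as examples of this group, since promoters of mitotic genes often hold CCAAT boxes and cell cycle homology regions. Each run is the 250 bases before the RefSeq start on the gene's strand (RefSeq, GRCm38.p6), chr11:99024190-99024439 (minus) for Top2a and chr2:164769679-164769928 (plus) for Ube2c. Capitals mark CCAAT and TTTGAA, each searched on both strands.
Top2a: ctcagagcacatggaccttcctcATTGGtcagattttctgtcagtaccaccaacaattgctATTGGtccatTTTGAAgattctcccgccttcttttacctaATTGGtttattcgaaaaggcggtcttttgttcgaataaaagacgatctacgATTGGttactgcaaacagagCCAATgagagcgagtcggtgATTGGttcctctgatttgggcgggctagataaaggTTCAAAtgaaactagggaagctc
Ube2c: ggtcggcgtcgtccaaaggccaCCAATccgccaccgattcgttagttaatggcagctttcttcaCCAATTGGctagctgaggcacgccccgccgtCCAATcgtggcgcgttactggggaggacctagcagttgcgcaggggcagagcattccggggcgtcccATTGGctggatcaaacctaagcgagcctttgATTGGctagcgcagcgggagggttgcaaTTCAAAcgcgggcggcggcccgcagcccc
Each gene held 6 CCAAT matches, of which 2 in Ube2c overlap on opposite strands, beside 2 TTTGAA matches in Top2a and 1 in Ube2c. Of 32851 promoters of the same length, 33.8% held CCAAT and 16.0% TTTGAA. These too are matches of letters only.

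The cell cycle list summed to 8874 CPM (8438 to 9328) in control, 3989 (3733 to 4257) in Ang II and 8971 (8603 to 9351) in B6.SLE123. Of 9 list genes compared in Ang II, 6 were at least 2-fold lower, the median ratio was -1.22 and the ratio of the sums was -1.15 (-1.27 to -1.03). In B6.SLE123, 0 of 12 passed 2-fold and the sums differed by 0.02 (-0.08 to 0.11). A few cells carried much of the signal, since 5 control, 4 Ang II and 8 B6.SLE123 members held 50% of the list's UMIs. Over hashtags the list ran from 2024 to 13625 CPM in control and from 1765 to 6998 in Ang II, which overlap.

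Without the upper limit on detected genes, 4 more Ang II cells met the rule and none did in control or B6.SLE123. They had 3666, 3704, 3993 and 6762 genes and 12104, 12488, 14027 and 64867 UMIs. All 4 held mitotic UMIs (2, 36, 85 and 87), and the cell cycle list stood at 9171, 27066, 22029 and 14106 CPM in them. With these cells the Ang II sum was 7798 CPM (7500 to 8104) over 42 members, a ratio of -0.19 (-0.28 to -0.09), 0 of 14 list genes were 2-fold lower and the median was 0.01. Leaving out only the cell of 64867 UMIs gave 6259 CPM, a ratio of -0.50 (-0.60 to -0.40) and 0 of 9 genes 2-fold lower. Pclaf then had a ratio of -1.29 with all 4 cells and Top2a -0.61. Members with a mitotic UMI became 9 of 42 (21.4%, 10.3 to 36.8). Whether such deep barcodes were 1 cell each was not tested, and the size of the Ang II difference in proliferation genes therefore depends on where the limit is set.

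**Figure D4:**
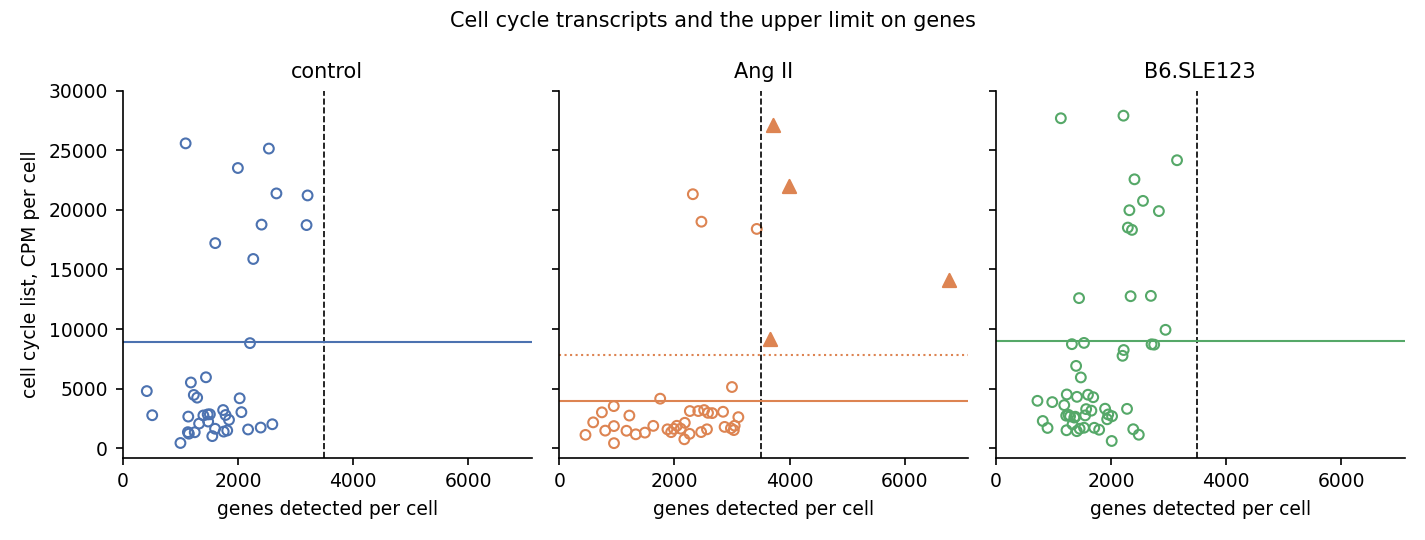
Level of the cell cycle list (CPM per cell) against the genes detected in each Clec4a4 type 2 dendritic cell, by library, with the limit of 3500 genes dashed, the pooled level of members under it as a solid line, and for Ang II the pooled level without the limit dotted. The 4 Ang II cells past the limit (triangles) stand at 9171 to 27066 CPM, while the pooled Ang II level was 3989 CPM with the limit and 7798 CPM without it.

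The genes named as higher in Ang II members had ratios from 0.63 to 1.52. Eno1, a glycolytic enzyme, had 35 UMIs in control, 105 in Ang II and 89 in B6.SLE123, an Ang II ratio of 1.20 (0.64 to 1.80). Zfp36, which encodes a protein that destabilises inflammatory mRNAs, was at 103, 259 and 181 CPM, a ratio of 1.33 (0.55 to 2.18). Zfp36 was the only 1 of 9 dissociation and immediate early genes past 2-fold in Ang II, where the list median was 0.24. In B6.SLE123, 2 of 9 passed, Hspa8 and Hspa1a, with a median of 0.47. Fkbp8, a mitochondrial chaperone gene, and Zmiz1, a coactivator gene, each went from 12 to 45 UMIs, a ratio of 1.52. Among the 12 named higher genes, 5 encode ribosomal proteins, among which Rps29 had the lowest ratio at 0.72 and Rpl35a was at 0.99, and AY036118 and Gm42418, which overlap ribosomal RNA, had ratios of 1.13 and 0.63. For Rpl35a, Rpl21, Rps28 and Rps29 the ratio in B6.SLE123 was below 0, from -0.71 to -0.53.

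**Figure D5:**
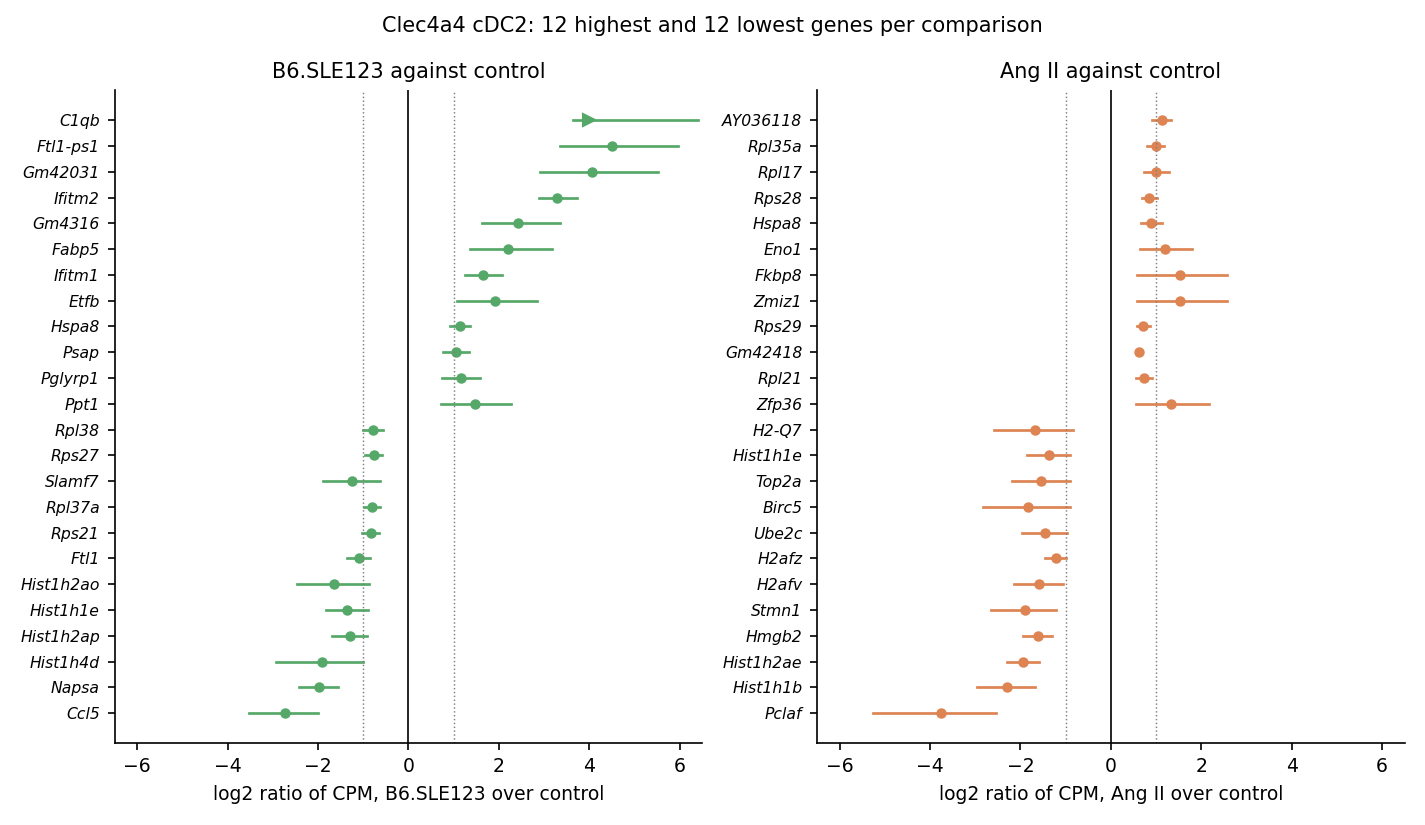
Log2 ratio of CPM to control in Clec4a4 type 2 dendritic cells for the 12 highest and 12 lowest genes of each comparison, with exact 95% counting intervals as bars, dotted lines at 2-fold and an arrowhead for C1qb, whose ratio is set against a floor of 3 UMIs. Ifitm2 stands at 3.30 and Ccl5 at -2.73 in B6.SLE123, and Pclaf at -3.75 in Ang II.

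Among the lists of dendritic cell identity, the type 1 genes differed most between libraries. The 12 type 1 genes summed to 527 CPM in control, 844 in Ang II and 1192 in B6.SLE123 members, a log2 ratio of 1.18 (0.83 to 1.53) in B6.SLE123 and 0.68 (0.31 to 1.05) in Ang II. Only 2 of them could be compared singly, of which Ppt1 passed 2-fold in B6.SLE123, with medians of 0.94 and 0.52. Without the 0, 3 and 3 members that met the type 1 rule, the medians were 0.31 and 0.15. In B6.SLE123, 0 of 9 pan-dendritic genes and 0 of 4 Esam type 2 genes passed 2-fold, with medians of -0.17 and -0.44, beside 2.87% higher and 0.958% lower over all genes compared. In Ang II, 0 of 11 and 0 of 4 did, with medians of 0.02 and -0.09, beside 1.49% and 2.89%. Of the Notch pathway only Dtx1 had enough UMIs, with ratios of -0.79 in B6.SLE123 and 0.28 in Ang II. NF-kB targets had medians of 0.05 and 0.12 over 9 genes each, and Ccl5 was the only member past 2-fold in either. Of 3 cytokine and chemokine genes compared in each, Ccl5 alone passed 2-fold. Ms4a4c was the only 1 of 4 Cd209a type 2 genes past 2-fold in B6.SLE123, and 0 of 4 passed in Ang II. No C-type lectin or Fc receptor gene passed 2-fold, of 3 compared in B6.SLE123 and 4 in Ang II, nor did the 1 pattern recognition receptor gene compared in each. No positioning receptor gene, such as Gpr183, reached the 50 UMIs needed. Il12b and Ccl22, products of activated or migratory dendritic cells, were at 0 in the members of all 3 libraries.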

How the data were processed

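Spleen cells of 3 single-cell libraries were analysed. Per the file headers, the authors made raw UMI counts per gene and hashtag with Cell Ranger 6.0.0, and the labels name build mm10. The deposited counts were not normalized. Barcodes with over 200 and under 3500 detected genes, under 15% mitochondrial UMIs and a top hashtag at least 3 times the second were kept, leaving 15957, 13982 and 17514 of 18218, 16062 and 20691 barcodes. No doublet caller was run beyond the hashtags. The study states its limits as RNA counts, so a reading as UMIs was an alternative.

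UMIs were summed over the members of a library, and ratios of CPM were taken for genes with at least 50 UMIs in both libraries together, with exact conditional 95% intervals and a floor of 3 UMIs where a library had 0. Shares have exact Clopper-Pearson intervals. All intervals cover counting error only. With 1 library a group, each holding 2 conditions, no test was run. The text names the 12 highest and 12 lowest genes of each comparison, ranked by the interval bound nearest 0, without immunoglobulin, T cell receptor, sex-linked and rule genes, and gives genes of fixed lists by counts. Genes named from lists, other gates and rule genes are outside that ranking. The members, lists and rules were chosen with earlier results of these data known. Gene positions are from GENCODE vM21 (GRCm38), matched for 32158 of 32285 genes. Python 3.11.15, NumPy 2.4.6, SciPy 1.17.1 and matplotlib 3.10.9 were used, and the calculations were tested on simulated data.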

Additional observations from a re-analysis of the deposited data

How the results depend on the processing

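No paired analysis was possible because each group is 1 library and no test was run. The log2 share ratio of B6.SLE123 was -0.32 as a share of the dendritic cells of 4 kinds, and that of Ang II was -1.75 after thinning each cell to 1000 UMIs, which left 15, 4 and 16 members. Both had the opposite sign to the main setting. Leaving out each hashtag gave share ratios of 0.09 to 0.59 in B6.SLE123 and -0.22 to 0.44 in Ang II. The count of genes at least 2-fold higher in B6.SLE123 was 9 when the limits on genes were read as limits on UMIs, 220 at 20 or more UMIs, 10 at 100 or more and 20 to 43 leaving out each hashtag, with the lowest without B6.SLE123 hashtag C0303. The count lower was 21 with no limit on Cd209a and Clec10a, 107 at 20 UMIs, 6 at 100 and 12 to 17 leaving out each hashtag. In Ang II the count higher was 76 with no upper limit on genes, 5 in the UMI reading, 149 at 20 UMIs, 5 at 100, 32 as a mean over cells and 15 to 26 leaving out each hashtag, with the highest without control hashtag C0301. The count lower was 7 in the UMI reading, 178 at 20 UMIs, 12 at 100 and 23 to 40 leaving out each hashtag. The UMI reading left 13, 8 and 24 members. In it Ppt1 (-0.44) and Hist1h2ao (0.56) turned in B6.SLE123, and Zmiz1 (-0.92), Hist1h1b (1.08), Hist1h2ae (1.08), Stmn1 (1.66), Birc5 (1.66), Top2a (1.08) and H2-Q7 (0.66) in Ang II. Ppt1 also turned, to -0.025, without members that met the type 1 rule, and the Ang II median of the cell cycle list turned to 0.0085 with no upper limit on genes. The other causes were not tested. Of 24 named genes, 22 kept their direction under every alternative run in B6.SLE123 and 17 in Ang II. Leaving out members with a C1q UMI or members that met the type 1 rule was chosen after seeing the data. With 38 to 53 cells a library, genes of few UMIs and shares of rare cells could not be resolved.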

Other observations

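The genes that differed in B6.SLE123 members were compared by chromosome, since the Sle1, Sle2 and Sle3 intervals of this strain lie on chromosomes 1, 4 and 7. Of the 24 named genes, 6 lie on chromosome 7 (Ifitm2, Ifitm1, Etfb, Pglyrp1, Napsa and Ftl1), 2 on chromosome 4, 2 on chromosome 1 and 5 on chromosome 13, 4 of these histone genes. Chromosome 7 held 105 of the 1253 genes compared and 7.62% of them passed 2-fold in either direction, against 9.26% of 54 on chromosome 8 and 10.6% of 47 on chromosome 13. Of 258 genes compared on the 3 chromosomes, 10 were at least 2-fold higher and 3 lower (5.04%), against 26 and 9 of 995 on the others (3.52%). In Ang II the shares were 4.56% and 4.33%. The borders of the intervals were not used here.

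Cst3, a rule gene and a protease inhibitor high in dendritic cells, varied widely among B6.SLE123 hashtags with at least 3 members, from 858 to 26176 CPM, against 1504 to 4044 CPM in control. Pooled, Cst3 was at 2591 CPM in control, 3316 in Ang II and 6486 in B6.SLE123. As for every rule gene, these levels describe how the cells were picked and are not findings. They also rested on few cells. In the hashtag at 26176 CPM (C0306, 4 members), 1 cell held 337 and another 306 of 657 Cst3 UMIs. Cells with 308, 337, 262 and 306 UMIs carried much of the 1616 Cst3 UMIs of the 53 B6.SLE123 members. Each of these cells held 0 UMIs of Clec4a4 and of Ppp1r14a. They met the rule with 2, 3, 5 and 1 UMIs of Adam23 and 1, 0, 0 and 2 of Ccnd1. Whether they were another kind of cell was not tested. The labels tie no B6.SLE123 hashtag to a condition.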
